A study of Homo sapiens with 6 samples.

Results

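RNA of late S phase cells was compared with RNA of an unsynchronised culture in RPE-1, a telomerase-immortalised, near-diploid human retinal pigment epithelial line. The 6 libraries compared, of 17 in the series, are the 3 of cells collected 4 h after release from a thymidine block into the solvent DMSO (4h_DMSO) and the 3 of asynchronously cycling cells (cycling). They were paired by the experiment letter A, B or C of their columns in the table of counts. The 4h_DMSO cells had spent 24 h in 2 mM thymidine, were washed 3 times, and received DMSO from 1 h after the wash, for 3 h. Cells held in the same block and not released (arrested, 3 libraries) served to find the effects of the block and to ask which of them had returned to the cycling level at 4 h. Cells of the 6 h DMSO collection (6h_DMSO, 3 libraries, 5 h in DMSO) are shown beside some results. For cycling cells the labels give no thymidine, wash or DMSO, so the block, the washes and fresh medium, the solvent and the position in the cell cycle cannot be told apart as sources of a difference between 4h_DMSO and cycling cells.

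Excess thymidine is converted to a nucleotide that inhibits ribonucleotide reductase, so that dCTP runs short and forks stall at the start of S phase. A cycling culture holds cells of all phases, whereas cells released from the block pass through S phase together. Genes for origin licensing and replication are switched on by E2F factors as cells leave G1, and genes for mitosis are switched on later, by MuvB complexes with MYBL2 and FOXM1, through CHR and CCAAT elements in their promoters. Stalled forks also activate ATR and p53, and p53 switches on CDKN1A, the inhibitor that holds CDKs in check. The name late S comes from the release time, and no measure of DNA content is used here. Of the S phase genes RRM2, TYMS and CCNA2, none was called between 4h_DMSO and cycling cells.

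The library preparation marks strand, and in this table many counts lie on the strand opposite to abundant genes. An exon on the opposite strand overlaps 7017 of the 13510 features kept (51.9%), and these features took between 70.3% and 82.1% of the counts of a library. A feature with such an overlap is therefore given with a partner in brackets at its first value. In 4h_DMSO cells VIM-AS1 averaged 30882 CPM against 1119 for VIM, and THBS1-AS1 averaged 6487 CPM against 1142 for THBS1. BEST1 averaged 13027 CPM against 138 for FTH1. At these loci most counts lay opposite to the abundant gene. PTPN14 went the other way, with 57.0 CPM against 26.3 for the opposite KRT18P12. For a given pair, which gene the counts belong to was not tested and stays uncertain. Whether genes without an overlap, such as CDKN1A, LDHA and SCD, were counted in full was not tested. Totals ran from 1758747 to 2357561 counts per library. The libraries of experiment B stand apart from those of A and C on the first principal component (27% of variance), and they hold between 7.04% and 11.5% of their counts on 1 feature that the tables leave without a symbol, against 1.3% to 4.48% elsewhere. Of 16 markers of retinal pigment epithelium, 13 had a count in 4h_DMSO cells and 12 in cycling cells. Summed without TMM factors, as for all summed levels below, these markers held 16960 to 20243 CPM in 4h_DMSO libraries and 14852 to 18960 CPM in cycling libraries. Most of that sum lay on BEST1, which overlaps the abundant ferritin gene FTH1 and had 78811 counts in 4h_DMSO cells and 73737 in cycling cells. The defining visual cycle genes were at or near 0, with 2 and 0 counts for RPE65 and 0 and 2 for RLBP1 in 4h_DMSO and cycling cells. The keratin gene feature KRT8 (KRT18) had 25893 and 24439 counts, and which of these keratin genes they belong to is uncertain. None of the 8 pigment epithelium markers that passed the filter was called between 4h_DMSO and cycling cells. Markers of other cell types summed to 11.2 to 29.6 CPM in 4h_DMSO libraries and 14.8 to 26.7 CPM in cycling libraries, with 6 and 4 of 15 genes having any count.

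Cells at 4 h of release held more GREM1, SLC3A2, SLC7A5 and ANKRD1 RNA than cycling cells, and less RNA from the SAPCD2 and PLK1 loci, CCNE2 and DHRS3. In all, 793 of 13510 features (5.87%) were called between 4h_DMSO and cycling cells (edgeR quasi-likelihood test with the experiment as a block, Benjamini-Hochberg adjusted p under 0.05). Of these, 357 (2.64% of all features) were higher and 436 (3.23%) were lower in 4h_DMSO cells. The change passed 2-fold for 118 of those higher and 92 of those lower, and the median log2 change of all features was -0.01. Without the block, 63 (0.466%) were higher and 61 (0.452%) were lower, and all 124 of these (0.918%) were also called with it. The number lower fell to 203 without 4h_DMSO C, and the numbers higher and lower were 265 and 210 without experiment B. The authors' deposited table gives 128 features higher and 105 lower at the same threshold, and all 233 were called here. An opposite-strand exon overlaps 589 of the 793 called features. Since RNA was measured in bulk, fewer cells with a transcript and less of it per cell cannot be told apart. The plot of change against level shows both sets of calls.

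**Figure D1:**
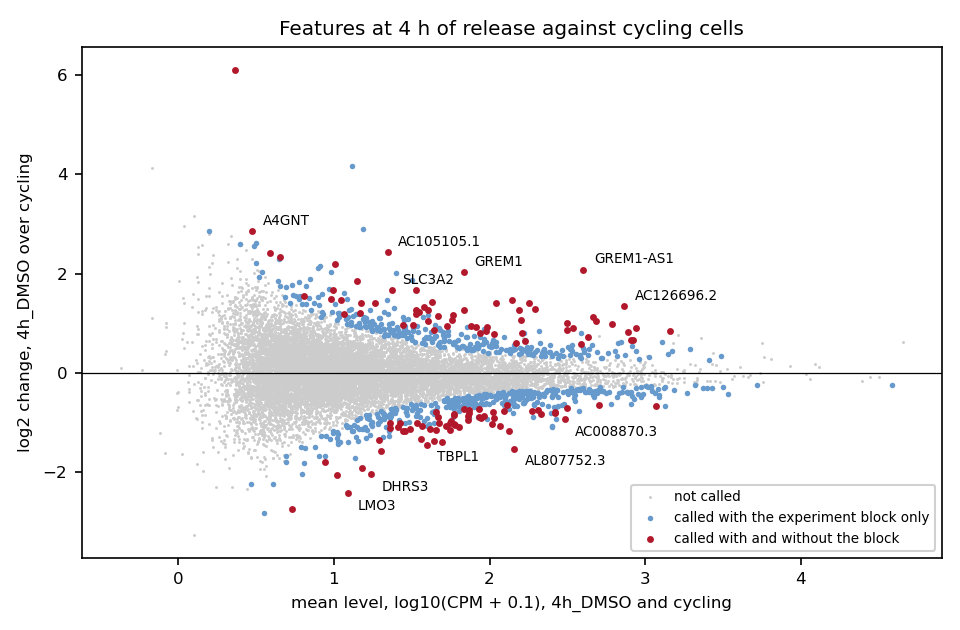
Log2 change of 4h_DMSO over cycling cells against the mean level, as log10(CPM + 0.1), for all 13510 features. Red points (124) were called with and without the experiment block, blue points with the block only, and grey points were not called. The highest point, the low ITGB2-AS1 (opposite to ITGB2), had no count in cycling cells, so its fitted change is not a bound.

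Both features at GREM1 rose, and GREM1 encodes gremlin, a secreted antagonist of bone morphogenetic proteins. GREM1-AS1 (GREM1) had 789, 582 and 580 CPM in 4h_DMSO libraries A, B and C, 233, 204 and 202 CPM in arrested libraries, and 157, 132 and 169 CPM in cycling libraries. The lowest 4h_DMSO library lay above every arrested and cycling library, and the log2 change over cycling was 2.08 ± 0.10 (SE, adjusted p = 3.76e-38). GREM1 itself had 114, 99.6 and 114 CPM in 4h_DMSO libraries, 40.3, 33.3 and 31 CPM in arrested libraries, and 27, 22.9 and 30.4 CPM in cycling libraries, a log2 change of 2.03 ± 0.17 over cycling. GREM1-AS1 was also 1.60 ± 0.10 higher (log2) in 4h_DMSO than in arrested cells. FST, which encodes follistatin, a secreted binder of activin, had 23.5, 15.4 and 27.6 CPM in 4h_DMSO libraries and 7.54, 5.98 and 4.35 CPM in cycling libraries. No 4h_DMSO library of FST overlapped a cycling library, and the log2 change was 1.85 ± 0.33 (adjusted p = 4.72e-06).

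Other features named by size of change rose as well. IL6-AS1 (IL6) had 9.48, 20.8 and 19.2 CPM in 4h_DMSO libraries and 2.22, 3.49 and 4.83 CPM in cycling libraries. GDNF-AS1 (GDNF), at the gene of a neurotrophic factor, had 36.4, 67.4 and 50.7 CPM in 4h_DMSO libraries, 51, 76.1 and 58.9 CPM in arrested libraries, and 14.2, 8.47 and 25.1 CPM in cycling libraries. The 4h_DMSO values of GDNF-AS1 overlap the arrested ones and lie above all cycling ones, unlike those of GREM1-AS1. AC105105.1 (ALPK2), opposite to a kinase gene, had 32.4, 26.3 and 53.7 CPM in 4h_DMSO libraries, 7.71, 6.46 and 17.3 CPM in arrested libraries, and 7.09, 5.48 and 7.73 CPM in cycling libraries. MEF2C-AS2 (MEF2C) rose by a log2 change of 1.67 ± 0.38 and AC027237.4 by 2.34 ± 0.59 (adjusted p = 0.000575 and 0.000984). The remaining rises named were SLC3A2 and BBC3, described below, A4GNT, a Golgi glycosyltransferase gene, and BORCS6, a subunit gene of the BORC complex that positions lysosomes. The calls of A4GNT and BORCS6 rest on single libraries: the adjusted p of A4GNT was 0.0887 without 4h_DMSO A and 0.0568 without cycling A, and that of BORCS6 was 0.0561 without cycling A and 0.0662 without cycling C.

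Among the falls, DHRS3, which encodes an enzyme that reduces retinal to retinol, had 7.49, 6.94 and 5.41 CPM in 4h_DMSO libraries, 26.1, 34.3 and 18.8 CPM in arrested libraries, and 20.4, 39.8 and 23.7 CPM in cycling libraries. Its log2 change was -2.04 ± 0.32 over cycling (adjusted p = 1.21e-07) and -1.97 ± 0.32 over arrested cells, and the arrested and cycling values overlap. TBPL1 (SLC2A12), named for a TATA-binding protein relative and opposite to a glucose transporter gene, had 25.5, 18.3 and 19.7 CPM in 4h_DMSO libraries, 86.6, 58.7 and 86.4 CPM in arrested libraries, and 75.4, 48.8 and 49.7 CPM in cycling libraries. Its 4h_DMSO values lie below every arrested and cycling value, with a log2 change over cycling of -1.44 ± 0.20. LMO3, a LIM-domain cofactor gene, had 3.49, 3.96 and 3.94 CPM in 4h_DMSO libraries and 16.4, 20.4 and 24.6 CPM in cycling libraries. DAAM2 (DAAM2-AS1), which encodes a formin, had 22.5, 25.8 and 25.1 CPM in 4h_DMSO libraries and 59.4, 50.3 and 81.1 CPM in cycling libraries. AL355581.1 (L3MBTL3), SBSPON, C2 (ZBTB12) and FAM169A (NSA2) fell by log2 changes of -1.91 ± 0.34, -1.80 ± 0.41, -1.56 ± 0.29 and -1.35 ± 0.28. AC107302.1 was lower by -2.73 ± 0.70, a call that was lost without 4h_DMSO C (adjusted p = 0.0571) and without experiment B (0.0569). The remaining named falls were the 3 features at SAPCD2.

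**Figure D2:**
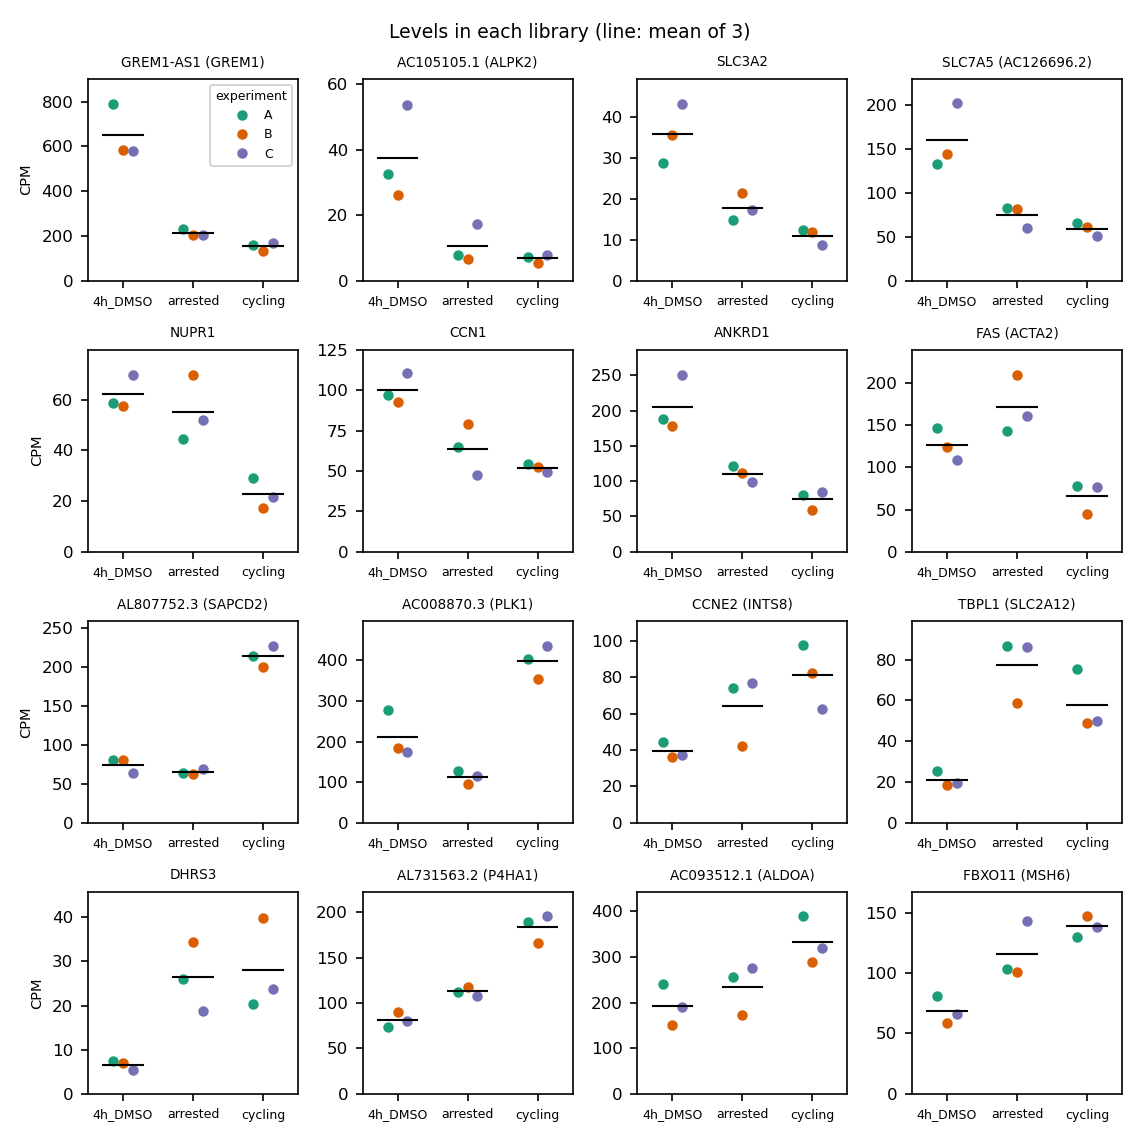
CPM in each library of 16 named features, with 4h_DMSO, arrested and cycling cells from left to right. Points are single libraries, coloured by experiment, lines are means of 3 libraries, and brackets name an overlapping gene on the opposite strand. GREM1-AS1, AC105105.1, SLC3A2, SLC7A5, CCN1 and ANKRD1 stand above both other conditions in 4h_DMSO cells, and TBPL1 and DHRS3 stand below both.

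A minority of mitotic genes was lower than in cycling cells at 4 h, and more of them had been lower in the block. Of 92 measured members of a list of G2 and mitosis genes, 2 were higher and 7 lower in 4h_DMSO than in cycling cells, with a median log2 change of -0.10 against -0.01 for all features, of which 2.64% were higher and 3.23% lower. Without the block, 0 were higher and 1 was lower (SAPCD2), and without experiment B 1 was higher and 4 were lower. In arrested cells 19 were lower than in cycling cells and 0 were higher, with a median log2 change of -0.39, where 2.83% of all features were lower and 2.81% higher. Of the 42 measured features opposite to members, 3 were higher and 8 lower in 4h_DMSO than in cycling cells (0 and 4 without the block), whereas 17 were lower and 1 higher in arrested than in cycling cells. Against arrested cells, 14 members were higher and 1 was lower in 4h_DMSO cells, where 2.25% of all features were higher and 2.52% lower.

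The promoters of 4 members that were lower in arrested than in cycling cells are shown, 3 with a match to TTTGAA and 1 without. Their log2 block effects were -3.08 for CENPA, -2.56 for PSRC1, -1.93 for SAPCD2 and -1.91 for PLK1. At 4 h SAPCD2 was called lower than cycling, and PLK1, CENPA and PSRC1 as annotated were not called. They are 300-base windows from RefSeq on GRCh38.p14, from 250 bases before to 50 bases after the start site, with matches to CHR (TTTGAA) and CCAAT on either strand in capitals.
PLK1, chr16:23678639-23678938, plus strand: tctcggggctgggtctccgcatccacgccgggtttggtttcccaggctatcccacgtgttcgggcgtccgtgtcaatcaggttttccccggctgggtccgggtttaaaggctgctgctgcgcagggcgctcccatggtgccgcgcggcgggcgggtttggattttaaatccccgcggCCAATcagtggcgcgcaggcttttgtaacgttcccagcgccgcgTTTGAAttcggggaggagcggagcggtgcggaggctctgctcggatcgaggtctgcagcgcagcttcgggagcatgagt
SAPCD2, chr9:137070508-137070807, minus strand: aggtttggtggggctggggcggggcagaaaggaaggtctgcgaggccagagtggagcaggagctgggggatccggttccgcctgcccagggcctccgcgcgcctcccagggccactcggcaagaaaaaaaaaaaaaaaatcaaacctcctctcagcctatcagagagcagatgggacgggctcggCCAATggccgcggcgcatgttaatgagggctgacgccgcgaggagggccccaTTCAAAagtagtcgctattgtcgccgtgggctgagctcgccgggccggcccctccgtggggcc
CENPA, chr2:26785806-26786105, plus strand: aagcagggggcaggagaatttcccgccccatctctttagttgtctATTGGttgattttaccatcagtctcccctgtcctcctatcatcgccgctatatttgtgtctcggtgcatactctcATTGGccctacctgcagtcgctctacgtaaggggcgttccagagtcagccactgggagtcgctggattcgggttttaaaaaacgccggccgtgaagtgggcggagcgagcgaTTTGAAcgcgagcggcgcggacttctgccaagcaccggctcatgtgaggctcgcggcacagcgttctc
PSRC1, chr1:109283096-109283395, minus strand: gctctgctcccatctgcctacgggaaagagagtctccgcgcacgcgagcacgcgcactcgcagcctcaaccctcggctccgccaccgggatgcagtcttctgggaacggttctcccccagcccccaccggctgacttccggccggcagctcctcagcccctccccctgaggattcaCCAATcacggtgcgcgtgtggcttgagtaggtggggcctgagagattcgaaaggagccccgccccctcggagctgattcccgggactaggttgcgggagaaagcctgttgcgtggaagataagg
The CHR matches begin at -29 in PLK1, -13 in SAPCD2 (as TTCAAA) and -18 in CENPA, counted from the start site. PSRC1 has a CCAAT match at -74 and no TTTGAA on either strand in this window. Variants of TTTGAA were not searched, and the PSRC1 window holds ttcgaa, so whether PSRC1 lacks a CHR cannot be said. Of the 92 measured members, 76 have a promoter in the table, and 51 of these (67.1%) hold TTTGAA and 53 (69.7%) hold CCAAT on either strand. Over all 35116 promoters of the table the shares were 15.2% and 34.6%. Of the members called at 4 h, SAPCD2, NCAPG and GPSM2, which were lower, and KIF23, which was higher, hold TTTGAA. UBE2S, SPC24 and MYBL2, which were lower, do not, and UBE2C and PKMYT1 have no promoter entry. The motifs do not overlap each other, and a match is a description of these letters and no evidence of binding.

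PLK1, the kinase that drives mitotic entry and spindle assembly, was still low at 4 h. AC008870.3 (PLK1), which holds more counts than PLK1 itself, had 277, 185 and 175 CPM in 4h_DMSO libraries, 127, 95.9 and 115 CPM in arrested libraries, and 403, 355 and 436 CPM in cycling libraries. The groups do not overlap, and the 4h_DMSO level lay between the others, with log2 changes of -0.93 ± 0.11 over cycling and 0.90 ± 0.12 over arrested cells (adjusted p = 6.28e-11 and 5.41e-09). ERN2 (PLK1) had 27, 25.3 and 25.6 CPM in 4h_DMSO libraries, 11.9, 15.9 and 15.7 CPM in arrested libraries, and 53.6, 43.3 and 73.4 CPM in cycling libraries, the same order. PLK1 as annotated had 10.5, 12.9 and 9.35 CPM in 4h_DMSO libraries and 20.8, 21.9 and 12.1 CPM in cycling libraries, which was not called (log2 -0.73, 95% interval -1.30 to -0.17, adjusted p = 0.119).

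All 3 features at SAPCD2, which encodes a regulator of spindle orientation, were lower than in cycling cells. AL807752.3 (SAPCD2) had 80.4, 80.3 and 63.5 CPM in 4h_DMSO libraries, 64.7, 62.6 and 69.6 CPM in arrested libraries, and 214, 200 and 228 CPM in cycling libraries. Its 4h_DMSO values overlap the arrested ones and lie far below the cycling ones, with a log2 change over cycling of -1.52 ± 0.13 (adjusted p = 1.2e-20) and over arrested cells of 0.18, with a 95% interval from -0.10 to 0.45. SAPCD2 itself and AL807752.2 (SAPCD2) had log2 changes over cycling of -2.06 ± 0.39 and -1.39 ± 0.18. Over arrested cells neither was called, with log2 differences of -0.12 (95% interval -1.04 to 0.79) for SAPCD2 and 0.47 (0.04 to 0.90) for AL807752.2. In 6h_DMSO cells AL807752.3 averaged 191 CPM, near its cycling mean of 214 CPM. CLCC1 (GPSM2), opposite to the gene of a spindle positioning protein, had 215, 165 and 137 CPM in 4h_DMSO libraries and 293, 240 and 257 CPM in cycling libraries. That fall of -0.63 ± 0.11 was called with the block only (adjusted p = 5.38e-06, and 0.1 without it). UBE2S, the E2 enzyme that extends ubiquitin chains for the anaphase-promoting complex, had 94.8, 84.2 and 78.8 CPM in 4h_DMSO libraries, 47.5, 56.2 and 39.6 CPM in arrested libraries, and 132, 117 and 105 CPM in cycling libraries. Its groups do not overlap, and its call over cycling (adjusted p = 0.0149) was lost without the block (0.235), without 4h_DMSO B or C (0.201 and 0.0792), without cycling A (0.183) and without experiment B (0.138).

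**Figure D3:**
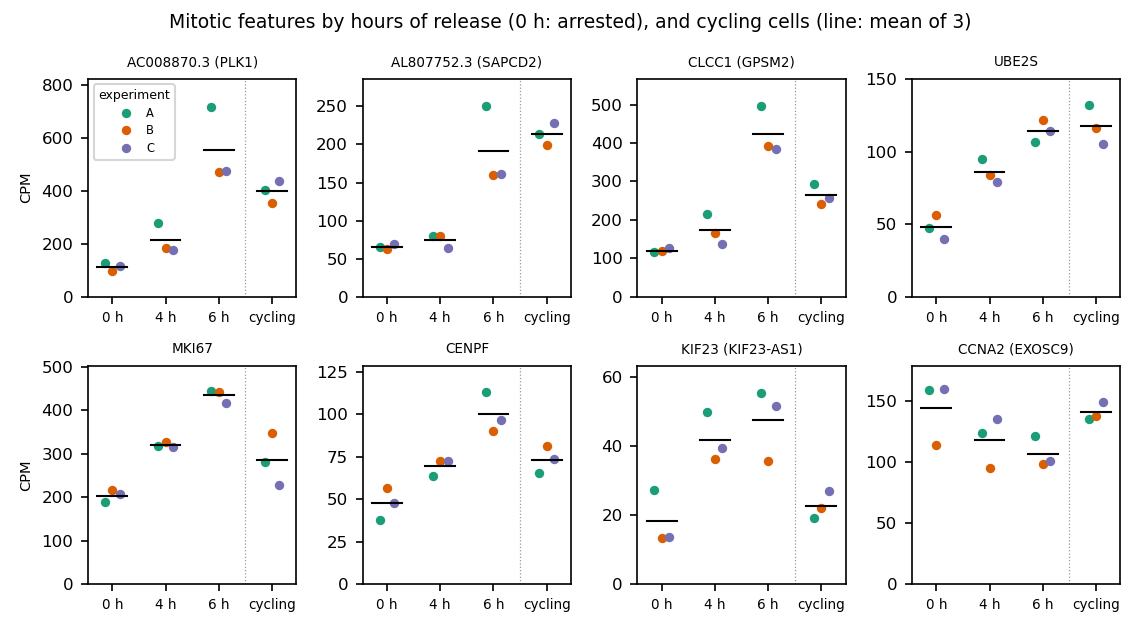
CPM of 8 mitotic features in each library by hours of release (0 h is arrested, 4 h and 6 h are the DMSO collections) and in cycling cells. AC008870.3 averaged 113, 212 and 555 CPM at 0, 4 and 6 h and 398 CPM in cycling cells, whereas MKI67 averaged 204, 320 and 434 CPM and 286 CPM, so that 4 h lies below cycling for the first and not below it for the second.

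MKI67 and CENPF, both lower in the block, were within 2-fold of cycling at 4 h by their 95% intervals, and PSRC1, also lower in the block, was only just so. MKI67 and CENPF were within 2-fold in arrested cells too (95% intervals -0.68 to -0.28 and -0.92 to -0.32), so the band alone shows no return. Over arrested cells both were higher at 4 h, by log2 changes of 0.66 and 0.54 (adjusted p = 5.65e-07 and 0.0181). MKI67, which encodes the proliferation antigen Ki-67, had 318, 327 and 317 CPM in 4h_DMSO libraries, 189, 215 and 206 CPM in arrested libraries, and 280, 348 and 229 CPM in cycling libraries. The 4h_DMSO values fall within the cycling range, with a log2 difference of 0.18 (95% interval -0.02 to 0.37), and above all arrested values. CENPF, a kinetochore protein gene, had 63.4, 72.3 and 72.4 CPM in 4h_DMSO libraries, 38, 56.7 and 47.8 CPM in arrested libraries, and 65.6, 81.2 and 73.4 CPM in cycling libraries. Its log2 difference from cycling was -0.08, with a 95% interval from -0.37 to 0.21. PSRC1, a spindle protein gene, had 4.99, 8.92 and 4.43 CPM in 4h_DMSO libraries, 0, 1.49 and 1.02 CPM in arrested libraries, and 7.98, 3.98 and 4.35 CPM in cycling libraries. The interval for its log2 difference from cycling was -0.704 to 0.998, just inside the 2-fold limit. At these low levels the difference turned sign in 3 of 12 other settings. For CENPA, the centromeric histone H3 variant, the interval was wider (-1.60 to 0.19), and its return cannot be judged at levels of 1.49 to 7.73 CPM. CCNA2 (EXOSC9), which encodes cyclin A2, had 123, 95.1 and 135 CPM in 4h_DMSO libraries and 135, 137 and 149 CPM in cycling libraries and was not called (log2 -0.26, 95% interval -0.51 to -0.01, adjusted p = 0.251). KIF23 (KIF23-AS1), which encodes a kinesin of the central spindle, was 1 of the 2 members above cycling, with 49.9, 36.2 and 39.4 CPM in 4h_DMSO libraries and 19.1, 21.9 and 27 CPM in cycling libraries. That call (adjusted p = 0.0016) was lost without the block (0.114) and without cycling A (0.0847). The other member above cycling, UBE2C, lost its call without the block (adjusted p = 0.279), without 4h_DMSO A, B or C (0.112, 0.139 and 0.106) and without cycling B or C (0.163 and 0.186). CCNB1, CDK1, AURKA and TOP2A were not called, with log2 differences of -0.40 ± 0.43, 0.52 ± 0.41, -0.57 ± 0.44 and 0.28 ± 0.16.

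Most genes of G1/S control and licensing were not called, although the share called lower was above that of all features. Of all features 2.64% were higher, 3.23% lower and 5.87% called in either direction. Of 27 measured genes of G1/S control and origin licensing, 1 was higher and 3 were lower in 4h_DMSO cells (0 and 1 without the block, and 1 lower without experiment B), with a median log2 change of -0.36. Of 13 features opposite to members, 0 were higher and 4 were lower (0 and 1 without the block). CCNE2 (INTS8), which encodes the G1/S cyclin E2, had 44.4, 36.2 and 37.4 CPM in 4h_DMSO libraries, 74.2, 42.3 and 76.7 CPM in arrested libraries, and 98, 82.7 and 62.8 CPM in cycling libraries. No 4h_DMSO value overlaps a cycling value, and the log2 change was -1.04 ± 0.17 (adjusted p = 2.07e-06). GSE1 (GINS2), opposite to a subunit gene of the replicative helicase, had 60.4, 62.4 and 56.6 CPM in 4h_DMSO libraries and 100, 107 and 125 CPM in cycling libraries, a log2 change of -0.88 ± 0.15. MCM3, a subunit of the helicase loaded at origins, was lower with 18.5, 12.4 and 12.3 CPM in 4h_DMSO libraries and 33.3, 37.4 and 23.2 CPM in cycling libraries (adjusted p = 0.00158), a call that was lost without the block (0.087), without 4h_DMSO C (0.0556), without cycling B (0.149) and without experiment B (0.128). E2F7, a repressor that E2F1 switches on, was the member that was higher, with 19.5, 11.9 and 12.3 CPM in 4h_DMSO libraries and 4.43, 6.47 and 8.21 CPM in cycling libraries. Its adjusted p of 0.0156 went to 0.146 without the block, 0.243 without 4h_DMSO A, 0.11 without cycling A and 0.078 without cycling B. MCM2 (TPRA1), MCM5, CDC6 and E2F1 were not called, and the 95% interval of CDC6, -0.91 to 1.56, is wide at 0.991 to 8.86 CPM.

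Measured genes of the fork, of nucleotide supply and of the ATR pathway were called at shares near or under that of all features. The share was larger for recombination and Fanconi genes, 3 of 22. Of all features, 5.87% were called in either direction (2.64% higher, 3.23% lower). Features opposite to members were called at larger shares than this, apart from the ATR pathway, where 0 of 8 were called. Of 35 genes of the fork and of chromatin assembly, 0 were higher and 2 were lower in 4h_DMSO cells, UHRF1 and RFC5 (AC131159.2), and neither without the block. The call of UHRF1, which recruits DNA methyltransferase to new DNA, was also lost without 4h_DMSO C (adjusted p = 0.255) or cycling A (0.164), and that of RFC5, a clamp loader subunit gene, without 4h_DMSO B (0.306) or cycling B (0.0913). Of 15 features opposite to members of that list, 3 were lower (1 without the block). The one called in both fits, FBXO11 (MSH6), opposite to a mismatch repair gene, had 80.9, 58.5 and 66 CPM in 4h_DMSO libraries, 103, 100 and 143 CPM in arrested libraries, and 130, 147 and 138 CPM in cycling libraries. Its 4h_DMSO values lie below all others, with a log2 change over cycling of -1.02 ± 0.14 (adjusted p = 5.06e-09). None of 24 genes of nucleotide supply was called, and of 13 features opposite to members 2 were lower, neither without the block. RRM2, a subunit gene of ribonucleotide reductase, had 43.9, 30.2 and 32 CPM in 4h_DMSO libraries and 22.2, 33.9 and 31.4 CPM in cycling libraries (log2 difference 0.27, 95% interval -0.15 to 0.69). TYMS (ENOSF1), thymidylate synthase, had 66.4, 51 and 50.2 CPM in 4h_DMSO libraries and 48.8, 64.7 and 61.8 CPM in cycling libraries (95% interval -0.39 to 0.26). The 4 features opposite to nucleotide supply genes that were higher in arrested than in cycling cells were ENOSF1 (TYMS), RRM1-AS1 (RRM1), DUT-AS1 (DUT) and AC137630.3 (IMPDH2). At 4 h all lay within 2-fold of cycling and none was called. Their log2 block effects were only 0.29 to 0.49, so the 2-fold band does not show a return. Over arrested cells, ENOSF1 and AC137630.3 were lower at 4 h (adjusted p = 0.00283 and 0.0146), and RRM1-AS1 and DUT-AS1 were not called (0.222 and 0.468). None of 16 ATR pathway genes was called, and of 22 genes of homologous recombination and the Fanconi pathway 1 was higher and 2 were lower, 0 of them without the block. Of 14 features opposite to recombination and Fanconi members, 2 were higher and 1 was lower, 0 of them without the block. Only 2 of 60 replication-dependent histone genes passed the filter on low counts, so histone RNA is not described.

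Several genes that p53 switches on were above the cycling level at 4 h. Of 24 measured p53 targets, 6 were higher and 1 (PLK2) was lower in 4h_DMSO than in cycling cells, with a median log2 change of 0.78, where 2.64% of all features were higher and 3.23% lower. In arrested cells 11 were higher and 0 lower, with a median of 1.19, where 2.81% of all features were higher and 2.83% lower. The counts of 6 and 1 became 2 and 0 without the block and also 2 and 0 without experiment B. Of 9 measured features opposite to members, 2 were higher and 0 lower at 4 h (1 and 0 without the block), with a median log2 change of 0.20. In arrested cells 7 of these features were higher and 0 lower. FAS (ACTA2), which encodes a death receptor, had 147, 125 and 109 CPM in 4h_DMSO libraries, 144, 210 and 161 CPM in arrested libraries, and 78, 44.3 and 76.8 CPM in cycling libraries. All 4h_DMSO values lie above the cycling ones, with a log2 change of 0.93 ± 0.14 (adjusted p = 7.54e-07, and 0.0108 without the block). DYNLT4 (PLK3), opposite to a stress kinase gene on the p53 list, had 40.9, 43.1 and 59.6 CPM in 4h_DMSO libraries, 32.6, 107 and 57.4 CPM in arrested libraries, and 22.6, 16.4 and 19.8 CPM in cycling libraries. CDKN1A, the CDK inhibitor p21, had 28, 74.3 and 48.7 CPM in 4h_DMSO libraries, 51.6, 135 and 48.8 CPM in arrested libraries, and 16, 15.4 and 8.21 CPM in cycling libraries. No 4h_DMSO value of CDKN1A overlaps a cycling value, and the log2 change was 1.86 ± 0.24 (adjusted p = 1.19e-09). In 4h_DMSO and arrested cells, but not in cycling cells, its level in B was higher than in A and C. Its adjusted p without the block was 0.154. BBC3 (MIR3190), the cell death gene PUMA, was low, with 3.49, 10.9 and 4.92 CPM in 4h_DMSO libraries, 7.12, 16.9 and 11.7 CPM in arrested libraries, and 1.77, 0.996 and 0.483 CPM in cycling libraries. Its call (adjusted p = 0.00308) was lost without 4h_DMSO B (0.105) and without experiment B (0.241). FDXR, ZMAT3 and GADD45A were the other members that were higher, by log2 changes of 1.83 ± 0.50, 0.94 ± 0.28 and 0.90 ± 0.26, and their calls were lost without the block (adjusted p = 0.35, 0.0828 and 0.226), without 4h_DMSO B (0.119, 0.145 and 0.0783) and without experiment B (0.513, 0.262 and 0.0788). FDXR and ZMAT3 also lost theirs without cycling B (0.273 and 0.0935), and GADD45A without cycling A (0.0944). PLK2 (log2 -0.47 ± 0.15, adjusted p = 0.0391) lost its call in most settings, with 0.0599 under another scaling.

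SLC3A2, SLC7A5 and NUPR1 led a minority of genes of the response to amino acid shortage that was called higher. Of 27 measured genes of the ATF4 response, by which cells answer amino acid shortage, 6 were higher and 0 lower in 4h_DMSO than in cycling cells (3 and 0 without the block), with a median log2 change of 0.57, where 2.64% of all features were higher and 3.23% lower (0.466% and 0.452% without the block). Of 17 features opposite to members, 5 were higher and 1 was lower (3 and 0 without the block). SLC3A2 encodes the heavy chain that pairs with the product of SLC7A5 to import leucine and other large neutral amino acids. Its promoter is shown because both partners rose and it is 1 of 3 list promoters, of 22 in the table (13.6%), with a match to the composite ATF4 and C/EBP motif TGATGNAA on either strand, against 3.62% of all promoters. The match, TTACATCA, begins at position 38 counted from the start site and is in capitals, and a TTTGAA begins at -81. Of the other called members, DDIT3, PSAT1, MTHFD2 and SLC7A5 have no match to the composite motif in their windows, and NUPR1 has no promoter entry. Whether the match bears on the rise was not tested. The SLC3A2 window is RefSeq's on GRCh38.p14.
SLC3A2, chr11:62881449-62881748, plus strand: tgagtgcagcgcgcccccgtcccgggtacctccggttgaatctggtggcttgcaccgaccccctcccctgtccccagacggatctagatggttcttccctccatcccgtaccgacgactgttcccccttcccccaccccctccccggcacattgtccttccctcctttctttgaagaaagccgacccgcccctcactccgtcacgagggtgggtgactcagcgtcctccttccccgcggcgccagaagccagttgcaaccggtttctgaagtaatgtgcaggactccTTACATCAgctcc
SLC3A2 had 28.9, 35.7 and 43.3 CPM in 4h_DMSO libraries, 14.8, 21.4 and 17.3 CPM in arrested libraries, and 12.4, 12 and 8.69 CPM in cycling libraries. The 4h_DMSO values lie above all others, with log2 changes of 1.67 ± 0.26 over cycling and 1.00 ± 0.24 over arrested cells (adjusted p = 1.32e-07 and 0.00265). SLC7A5 (AC126696.2) had 133, 144 and 202 CPM in 4h_DMSO libraries, 83.1, 81 and 59.4 CPM in arrested libraries, and 65.6, 61.3 and 50.7 CPM in cycling libraries, and likewise rose over both, by 1.41 ± 0.17 over cycling and 1.08 ± 0.17 over arrested cells. AC126696.2 opposite to it had 1141 CPM in 4h_DMSO library A, 834 in B and 1182 in C, against 436, 327 and 480 CPM in cycling libraries.

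For other members the 4h_DMSO and arrested values overlap. NUPR1, a stress-induced chromatin protein gene, had 58.9, 57.5 and 69.9 CPM in 4h_DMSO libraries, 44.5, 69.6 and 51.8 CPM in arrested libraries, and 29.3, 17.4 and 21.7 CPM in cycling libraries. The 4h_DMSO and arrested values overlap, and both lie above the cycling values, by log2 changes of 1.43 ± 0.20 at 4 h and 1.29 ± 0.20 in arrested cells. SLC4A5 (MTHFD2), opposite to a gene of mitochondrial folate metabolism, had 233, 170 and 251 CPM in 4h_DMSO libraries, 173, 185 and 247 CPM in arrested libraries, and 94.4, 85.7 and 88.9 CPM in cycling libraries, the same pattern. AC006030.1 (MTHFD2) rose by 0.98 ± 0.09 over cycling and did so in arrested cells by 1.04 ± 0.09. DDIT3 (MARS1), the stress factor CHOP, rose by 0.62 ± 0.13 with the block (adjusted p = 0.00039) and was not called without it (0.0921). PSAT1 and MTHFD2 were the other members that were higher, with means of 10.1 and 17.4 CPM in 4h_DMSO cells and 3.51 and 7.26 CPM in cycling cells, and lost their calls without the block (0.133 and 0.15) and without cycling C (0.0987 and 0.0894), PSAT1 also without 4h_DMSO A (0.18) and cycling A (0.128), and MTHFD2 without 4h_DMSO B (0.0762). The feature that was lower, DDIT4-AS1 (DDIT4), had 185, 126 and 168 CPM in 4h_DMSO libraries, 831, 726 and 1152 CPM in arrested libraries, and 463, 216 and 361 CPM in cycling libraries. DDIT4 encodes an inhibitor of mTORC1, and the call over cycling (log2 -1.09 ± 0.25, adjusted p = 0.037) was lost without the block (0.132) and without any 1 of the 6 libraries compared.

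Some targets of YAP and TEAD were called higher. Of 23 YAP and TEAD targets, 4 were higher and 0 lower in 4h_DMSO than in cycling cells (3 and 0 without the block), with a median log2 change of 0.29, and 7 were higher and 0 lower against arrested cells. Of all features 2.64% were higher over cycling (0.466% without the block) and 2.25% over arrested cells. ANKRD1, a nuclear ankyrin protein gene, had 188, 178 and 251 CPM in 4h_DMSO libraries, 121, 111 and 98.6 CPM in arrested libraries, and 79.8, 59.3 and 84.5 CPM in cycling libraries. Its 3 groups do not overlap, with a log2 change over cycling of 1.46 ± 0.16 (adjusted p = 1.14e-08). CCN1, a matricellular protein gene, had 97.3, 93.1 and 111 CPM in 4h_DMSO libraries, 64.7, 79 and 47.2 CPM in arrested libraries, and 54.1, 52.3 and 49.3 CPM in cycling libraries. CCN2 (AL133346.1), the gene of connective tissue growth factor, rose by 0.84 ± 0.17 (adjusted p = 0.0011), a call lost without cycling B (0.0887) or cycling C (0.0572), and AL133346.1 (CCN2) rose by 0.82 ± 0.09 in every setting tried. F3, tissue factor, rose by 0.78 ± 0.16 with the block (adjusted p = 0.000169) and was not called without it (0.398).

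Of 25 matrix genes, 3 were higher and 0 lower (1 and 0 without the block), and for this list and the next lists 2.64% of all features were higher and 3.23% lower (0.466% and 0.452% without the block). Of 26 immediate early genes, 5 were higher and 0 lower (1 and 0 without the block, 3 and 0 without experiment B). MCL1, a survival gene of the BCL2 family, had 38.4, 39.6 and 49.7 CPM in 4h_DMSO libraries and 18.2, 25.9 and 21.3 CPM in cycling libraries (log2 0.97 ± 0.21, adjusted p = 0.000436). NR4A1AS (NR4A1), at the gene of a nuclear receptor, had 55.9, 30.2 and 62.5 CPM in 4h_DMSO libraries, 19, 14.9 and 22.4 CPM in arrested libraries, and 27, 13.4 and 22.7 CPM in cycling libraries. The other 4 members called were KLF6, KLF2, IER2 (AC011446.2) and JUN, all with the block only. Each also lost its call without 4h_DMSO C or 4h_DMSO B, with adjusted p = 0.512 for KLF6 and 0.112 for KLF2 without C, and 0.0915 for IER2 and 0.238 for JUN without B. FOS did not pass the filter on low counts, and EGR1 was not called at 1.45 to 3.99 CPM. Of 10 NF-kB genes 4 were higher and 0 lower, none without the block and 1 without experiment B, and of 6 features opposite to members 4 were higher and 1 lower (2 and 0 without the block). LIF-AS2 (LIF), at the gene of a cytokine of the interleukin 6 family, had 236, 183 and 224 CPM in 4h_DMSO libraries, 171, 118 and 159 CPM in arrested libraries, and 107, 96.1 and 102 CPM in cycling libraries. IL1B, interleukin 1 beta, differed in level between experiments, and IL1B had 10.5, 87.7 and 9.35 CPM in 4h_DMSO libraries and 4.88, 25.9 and 7.73 CPM in cycling libraries, and its adjusted p was 5.27e-05 with the block, 0.806 without it, 0.122 without 4h_DMSO B and 0.0729 without cycling B.

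A minority of lipid and glycolytic genes was lower. Of 20 measured sterol and fatty acid synthesis genes, 0 were higher and 5 lower in 4h_DMSO than in cycling cells, with a median log2 change of -0.40, and 0 were lower without the block, where 3.23% of all features were lower (0.452% without the block). SCD, the desaturase that makes oleate, had 16.5, 7.93 and 11.8 CPM in 4h_DMSO libraries, 17.8, 14.9 and 16.8 CPM in arrested libraries, and 36.8, 23.9 and 27 CPM in cycling libraries. No 4h_DMSO value overlaps a cycling value, and the log2 change was -1.30 ± 0.27 (adjusted p = 0.00026, and 0.159 without the block). FASN, ACAT2 (TCP1), FADS1 (FADS2) and MVK (MMAB) were the other 4, by log2 changes of -0.76 ± 0.21 to -0.43 ± 0.11, and each lost its call without the block and without 4h_DMSO C (adjusted p = 0.146 for FASN, 0.0523 for ACAT2, 0.0999 for FADS1 and 0.142 for MVK). Of 19 hypoxia and glycolysis genes 0 were higher and 2 lower, none without the block and 1 without experiment B, and of 9 features opposite to members 0 were higher and 4 lower (0 and 3 without the block). AL731563.2 (P4HA1), at the gene of a collagen prolyl hydroxylase, had 73.9, 90.2 and 80.7 CPM in 4h_DMSO libraries, 113, 117 and 108 CPM in arrested libraries, and 189, 166 and 196 CPM in cycling libraries. Its 3 groups do not overlap, with a log2 change over cycling of -1.18 ± 0.13 (adjusted p = 7.69e-13). AC093512.1 (ALDOA) and SPSB2 (TPI1), opposite to the genes of glycolytic aldolase and triose phosphate isomerase, fell by -0.79 ± 0.11 and -0.82 ± 0.16. LDHA, lactate dehydrogenase, had 75.4, 34.2 and 93 CPM in 4h_DMSO libraries and 107, 111 and 153 CPM in cycling libraries, and its fall was called with the block (adjusted p = 5.4e-07) and not without it (0.432). Of 31 ribosome biogenesis genes 0 were higher and 1 lower (NPM1), with the block only.

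**Figure D4:**
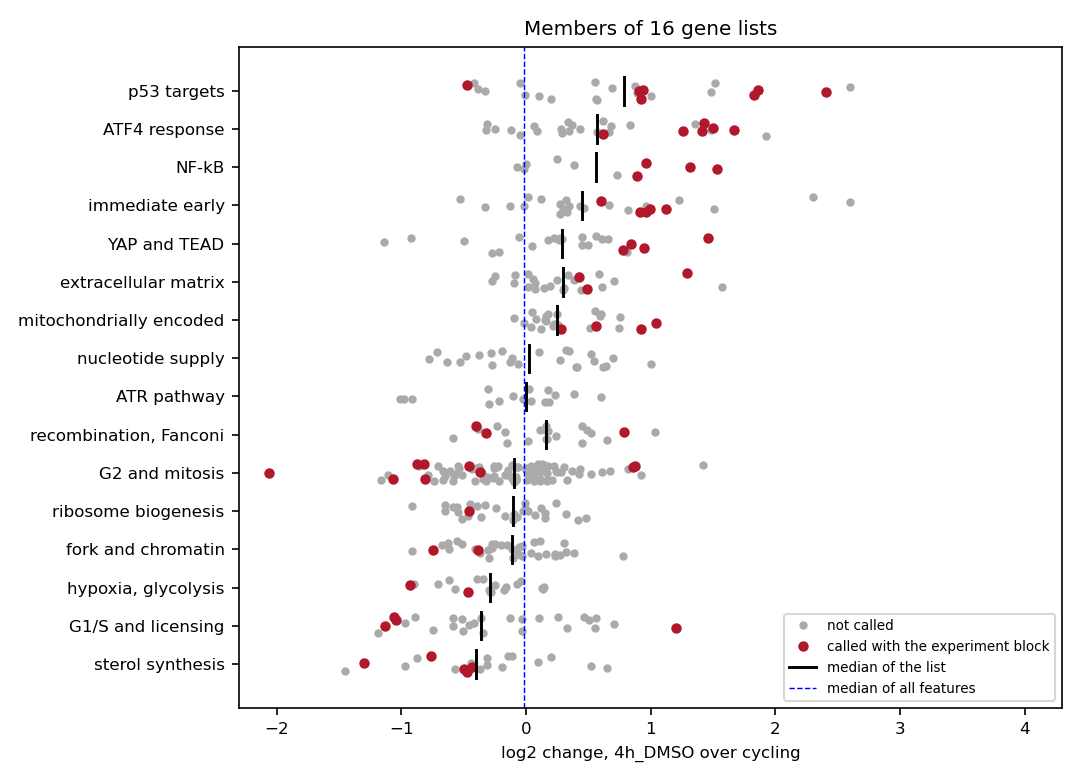
Log2 change of 4h_DMSO over cycling cells for each measured member of 16 gene lists. Red points were called with the experiment block, black bars are list medians and the dashed line is the median of all features (-0.01). Medians run from 0.78 for p53 targets to -0.40 for sterol synthesis, and most members of every list were not called.

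Most mitochondrially encoded genes that were lower in the block were near cycling at 4 h. Of 25 measured, 5 were higher and 8 lower in arrested than in cycling cells, and at 4 h 4 were higher and 0 lower (1 and 0 without the block, 8 higher without experiment B). Of all features 2.81% were higher and 2.83% lower in arrested cells, and 2.64% and 3.23% at 4 h. Of the 8 that were lower in arrested cells, 6 were within 2-fold of cycling and not called at 4 h, 1 was past it and 1 was undetermined. MT-ND2, a subunit of complex I, had 1151 CPM in 4h_DMSO library A, 740 in B and 1125 in C, 514, 380 and 545 CPM in arrested libraries, and 913, 720 and 809 CPM in cycling libraries. Each 4h_DMSO library of MT-ND2 lay above every arrested library, by a log2 change of 1.06 ± 0.09, and its call above cycling (adjusted p = 0.032) was lost without the block (0.656), without 4h_DMSO A or C (0.0828 and 0.0672) and without cycling C (0.241). MT-ND5 averaged 13822 ± 4368 CPM in 4h_DMSO cells, 6195 ± 1867 CPM in arrested cells and 12386 ± 2343 CPM in cycling cells (SD, n = 3 each). MT-TP, the proline tRNA gene, was the only one called above cycling in every setting tried, with 702, 625 and 623 CPM in 4h_DMSO libraries, 477, 781 and 478 CPM in arrested libraries, and 345, 255 and 344 CPM in cycling libraries. Mitochondrial genes lie close together on both strands, so these counts are uncertain as to the strand. Their summed level was 35886 to 57940 CPM in 4h_DMSO libraries and 37796 to 44879 CPM in cycling libraries.

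Across all features, 762 features (5.64%) were called between arrested and cycling cells, 379 higher (2.81%) and 383 lower (2.83%). At 4 h, 372 of them (48.8%) were back near cycling, which means not called over cycling and with the 95% interval within 2-fold of it. A further 266 (34.9%) were still apart, called in the same direction, and 10 (1.31%) were past cycling, called in the opposite direction. For 114 (15%) the interval was too wide to place them. The 48.8% is not a rate of recovery, because only 132 rises and 72 falls had passed 2-fold in arrested cells. Features back near cycling had median log2 block effects of 0.57 (rises) and -0.52 (falls), so many lay inside the band before release. For undetermined features these medians were larger, 1.397 and -1.413. Of the 379 that were higher in the block, 168 were back and 132 still apart, and of the 383 that were lower, 204 were back and 134 still apart. Of the 372 back near cycling, 156 were also called between 4h_DMSO and arrested cells, all of them toward cycling, where 644 features (4.77%) were called in all and 100 (0.74%) without the block. Both comparisons share the cycling libraries, so these shares describe the libraries and are not tested. With the band set to 1.5-fold, 260 were back and 226 undetermined, and without the block 139 effects were called (1.03%, 81 or 0.6% higher and 58 or 0.429% lower), of which 56 were back, 36 still apart and 0 past. Without cycling B, 187 were back and 149 still apart. Put the other way, 132 of the 357 features higher at 4 h and 134 of the 436 lower were also called in arrested cells in the same direction.

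Over the lists, the states at 4 h were as follows. Of the 19 mitotic members that were lower in the block, 9 were back near cycling, 4 still apart and 6 undetermined, against 48.8% back near cycling over all block effects, and of the 17 opposite features 8 were back, 8 still apart and 1 past. Of the 11 p53 targets that were higher, 0 were back, 6 still apart and 5 undetermined, and of the 7 opposite features 3 were back, 2 still apart and 2 undetermined. Of the 4 ATF4 response members that were higher, 2 were still apart and 2 undetermined, and of the 10 opposite features 3 were back, 5 still apart, 1 past and 1 undetermined. All 3 sterol synthesis genes that were lower were still apart, and of the 2 opposite features 1 was back and 1 still apart. Whether these lists differ from each other was not tested. XPC-AS1 (XPC), opposite to a DNA damage recognition gene that p53 can switch on, was one that was back, chosen after its values were seen, with 207 ± 20 CPM in 4h_DMSO cells, 427 ± 28 CPM in arrested cells and 180 ± 20 CPM in cycling cells (SD, n = 3 each). KPNA2, an importin gene of the mitotic list chosen likewise, had 32.2 ± 2.4 CPM in 4h_DMSO cells, 14.4 ± 5.3 CPM in arrested cells and 29.6 ± 6.7 CPM in cycling cells.

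**Figure D5:**
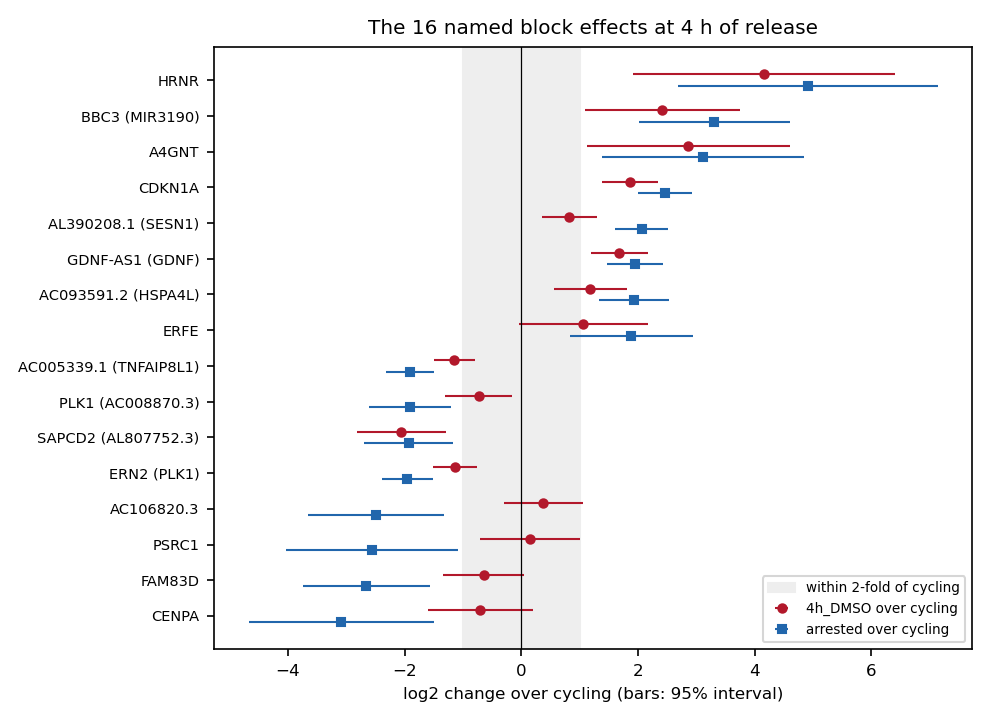
Log2 change over cycling with its 95% interval for the 8 largest rises and 8 largest falls of the block named by rule, at 4 h of release (red circles) and in arrested cells (blue squares). The grey band is 2-fold either side of cycling. Of the rises, ERFE alone was not called at 4 h, and of the falls CENPA, FAM83D, PSRC1, AC106820.3 and PLK1 were not called while ERN2, SAPCD2 and AC005339.1 were.

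Among the 8 largest rises of the block, AL390208.1 (SESN1), opposite to the stress gene sestrin 1, moved furthest back, with 46.4, 79.8 and 35 CPM in 4h_DMSO libraries, 109, 130 and 136 CPM in arrested libraries, and 26.6, 25.9 and 37.2 CPM in cycling libraries. It was lower in 4h_DMSO than in arrested cells (log2 -1.24 ± 0.20, adjusted p = 7.74e-05), and its remaining call over cycling (0.0263) was lost without the block (0.166), without 4h_DMSO B (0.277), without cycling A or B (0.168 and 0.195) and without experiment B (0.457). HRNR, which encodes a skin barrier protein, had 17.5, 38.6 and 17.7 CPM in 4h_DMSO libraries, 21.4, 75.1 and 31 CPM in arrested libraries, and 0, 0 and 3.86 CPM in cycling libraries. The 4h_DMSO and arrested values of HRNR overlap, and its call at 4 h (adjusted p = 0.00438) was lost without the block (0.0749). AC093591.2 (HSPA4L) had 19.5, 14.4 and 13.8 CPM in 4h_DMSO libraries, 27.3, 23.4 and 29.5 CPM in arrested libraries, and 6.21, 7.47 and 7.24 CPM in cycling libraries, between the others, and its call over cycling was lost without 4h_DMSO A (0.0729). Of the falls, FAM83D, a spindle protein gene, had 5.49, 8.92 and 5.41 CPM in 4h_DMSO libraries, 1.19, 1.49 and 2.03 CPM in arrested libraries, and 12, 12 and 7.24 CPM in cycling libraries. AC005339.1 (TNFAIP8L1) had 28.9, 28.2 and 27.1 CPM in 4h_DMSO libraries, 13.6, 19.9 and 15.7 CPM in arrested libraries, and 63.4, 53.3 and 69.5 CPM in cycling libraries, with 3 groups that do not overlap.

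Of the 10 features past cycling, 8 had been lower in the block and were higher at 4 h, among them AC106820.5 (CCNF), opposite to the cyclin F gene, with 206 ± 44 CPM in 4h_DMSO cells, 83 ± 6.4 CPM in arrested cells and 156 ± 13 CPM in cycling cells (SD, n = 3 each). AC008440.2 (MYADM) had 993 ± 57 CPM in 4h_DMSO cells, 466 ± 80 CPM in arrested cells and 623 ± 52 CPM in cycling cells, and was the one of these 10 whose 4h_DMSO over cycling call held without the block (adjusted p = 0.0235), although its arrested over cycling call did not (0.285). The 2 that had been higher and were lower at 4 h were DDIT4-AS1 and AL031282.1 (SLC35E2A). All of them were named after their values were seen, apart from DDIT4-AS1, MT-ND2 and AC011446.2 (IER2), and between 3 and 10 features were past cycling when single libraries were left out.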

How the data were processed

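Per the labels' protocols, RNA was extracted with Trizol and made into libraries with a KAPA kit that marks strand. TopHat, HTSeq, DESeq2 and GRCh37 are named in the submitters' processing notes, and the strand setting of the counting is not given in the sources used here. The deposited table holds counts per gene ID, and the authors' deposited tables of comparisons hold log2 fold changes and adjusted p-values. Samples are 3 independent experiments, per the series' design text, labelled A, B and C in the table's columns, so the experiment was kept as a block; how far the letters pair the libraries is in the closing section.

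The counts were fitted with edgeR 4.0.16 (R 4.3.3, limma 3.58.1) over all 17 libraries, with TMM factors, filterByExpr (minimum count 10, minimum total 15) and the robust quasi-likelihood test, and 13510 of 60252 IDs were kept. A call is a Benjamini-Hochberg adjusted p under 0.05 over all kept features. CPM are TMM-scaled means ± SD of 3 libraries, and log2 changes carry the SE of the fit. Named features are the 12 largest changes in each direction among those called with and without the block and reaching a mean of 5 CPM in the higher condition, the 8 largest block effects in each direction by the same rule, 25 panel genes and up to 8 called members of each list. Members and lists were chosen with earlier results of these data known. Opposite-strand overlaps come from GENCODE 29 on GRCh38, matched by gene ID, and symbols matched 55528 IDs. Scripts were tested on simulated data for 4h_DMSO over cycling, with 200 of 13032 features changed by a log2 of 1. Of these, 78% were called in the right direction, and 8.24% of all calls were false. Alternatives were no block, another scaling, filters, DESeq2 1.42.0, the 6 libraries alone and libraries left out. Promoters are RefSeq's. Some results are not reported here.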

Additional observations from a re-analysis of the deposited data

How the results depend on the processing

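With no replicate block, the calls were 63 higher and 61 lower for 4h_DMSO over cycling, 81 and 58 for arrested over cycling, and 56 and 44 for 4h_DMSO over arrested, and the block effects were 56 back near cycling, 36 still apart, 0 past and 47 undetermined. Pairing by letter rests on the columns and the design text: the correlation of same-letter deviations of 4h_DMSO and cycling libraries was 0.155 for A, 0.428 for B and 0.0896 for C, and 4h_DMSO A correlated more with cycling C (0.213), so the block mainly separates B from A and C. With a 1.5-fold band, 226 were undetermined. With only the 6 libraries 269 were lower, and without experiment B 210 were lower. Leaving out single libraries gave 281 to 340 higher and 203 to 357 lower for 4h_DMSO over cycling (228 without 4h_DMSO B, 203 without 4h_DMSO C, 246 without cycling B and 268 without cycling C), 236 to 432 and 171 to 350 for arrested over cycling, and 196 to 338 and 149 to 345 for 4h_DMSO over arrested. The same removals gave 187 to 408 back, 149 to 280 still apart, 3 to 10 past and 64 to 152 undetermined. Leaving out single libraries, these log2 changes of 4h_DMSO over cycling, none of them called, turned sign: -0.227 to 0.645 for PSRC1, -0.0425 to 0.874 for AC106820.3, -0.47 to 0.935 for CDC6, -0.193 to 0.0567 for TYMS, -0.11 to 0.0199 for CENPF, -0.199 to 0.0736 for CCND1 and -0.0605 to 0.463 for HMGCS1. Without experiment B they were -0.36 for PSRC1, -0.00481 for AC106820.3, 0.109 for TYMS and 0.00253 for CENPF. The cause was not tested. Of 129 named features that were called, 44 were called in every setting and 22 lost the call only without the block. At these totals, changes of genes under a few CPM could not be placed.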
